A study of Mus musculus with 7 samples.

Results

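The 38 genes described here encode the glucose and lactate transporters, the enzymes of glycolysis, the enzymes of the pentose phosphate pathway and those of the tricarboxylic acid (TCA) cycle. They were listed by pathway: 19 for glycolysis and its links, 6 for the pentose phosphate pathway and 13 for the TCA cycle. The list was made with earlier results of these data known. A gene was measured where the array annotation assigned at least 1 probe set to it and to no other gene, and its brightest such probe set, by the mean over the 7 arrays, stood for it. This held for 35 of the 38 genes, among 18193 genes of the array with a probe set of their own. Gpi1, Eno1 and G6pdx were not measured in this way. All 35 passed the filter on low values (log2 intensity above 4 on at least 3 of the 7 arrays), as did 9517 genes in all. The study profiled B cells from the spleens of FVB mice, either wild type (WT, n = 4) or carrying an Eµ-miR-155 transgene (TG, n = 3), with 1 Affymetrix expression array per sample. The transgene places the microRNA miR-155 under Eµ, an enhancer of the heavy chain locus, which is active in the B lineage. No treatment was given to either group, and the labels state neither age nor sex. B cells were isolated from spleen with a magnetic B-cell kit, so each array measures whatever cells the isolation left. Samples are treated as separate mice, since the series describes its groups by numbers of mice. If arrays share a mouse or a litter, the p-values below measure only the spread between these arrays.

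Glycolysis splits glucose into pyruvate in the cytosol, and lactate dehydrogenase turns pyruvate into lactate while restoring the NAD+ that the pathway needs. The pentose phosphate pathway branches from glucose 6-phosphate and yields NADPH and ribose 5-phosphate, the sugar of nucleotides. The TCA cycle oxidises acetyl groups in mitochondria and feeds electrons to the respiratory chain. Resting B cells run these pathways at a low rate and raise glucose use when they are activated to grow and divide. The microRNA that the transgene carries is given here because it is what separates the groups, with its seed (bases 2 to 8) in capitals, from RefSeq (mouse build GRCm38.p6, chr16:84714143-84714165, plus strand).
mmu-miR-155-5p: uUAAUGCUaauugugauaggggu

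Values are the deposited log2 intensities, on which a difference of 1 is a doubling. Mature B cell markers read high on every array. All 11 mature B cell marker genes with a probe set lay above 4 in both groups, with array means of 13.38 to 13.49 in WT and of 13.28, 13.26 and 12.75 in TG replicates 1, 2 and 3. Markers of other cells read higher on the TG arrays, and their array means are given over every gene of a list with a probe set, whether or not it passed the filter. Single granulocyte genes ranged widely in TG, from Mpo at 12.84, 13.25 and 13.93 to Mmp9, which was under 4 on every array. The array mean of the granulocyte markers was 2.75 to 3.41 in WT and 6.68 to 7.52 in TG. Of its 13 genes, 9 were above 4 on no WT array and 2 were above 4 on no TG array. The corresponding means were 3.24 to 3.27 and 4.49 to 6.22 for erythroid, 2.81 to 2.91 and 4.89 to 6.88 for natural killer cell, 3.31 to 3.63 and 4.53 to 5.94 for blood progenitor, and 6.58 to 7.62 and 8.70 to 10.03 for cell cycle genes. They were 3.70 to 4.92 and 4.93 to 6.83 for macrophage, 4.37 to 4.74 and 5.73 to 6.96 for dendritic cell, 6.17 to 8.09 and 9.09 to 10.24 for platelet, and 8.85 to 9.10 and 9.51 to 10.56 for plasma cell markers. TG replicate 3 stood apart in its T cell marker mean of 8.31, against 3.37 and 3.51 in the other TG arrays and 3.13 to 3.21 in WT, and the T cell genes Cd3d and Thy1 were above 4 there (10.70 and 10.78) and on no other array. WT replicates 3 and 4 differed from all other arrays in sex-linked genes: Xist was 2.22 and 2.81 there and 13.61 to 13.93 elsewhere. In bulk samples such as these, a change in the share of a cell type and a change of RNA per cell cannot be told apart.

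Most of the enzymes were at a higher level in the TG arrays, by a small amount, and glycolytic genes made up the larger number of those that passed the test. Of the 35 genes, 10 were higher in TG and 1 was lower at an adjusted p under 0.05 (limma, Benjamini-Hochberg over all 20994 probe sets tested), and 24 did not pass. These are shares of 28.6% and 2.86%, against 8.11% of all genes tested called higher and 2.56% called lower. The 10 that rose were Hk1, Hk2, Hk3, Tpi1, Pgk1 and Pgam1 of glycolysis, Pgd of the pentose phosphate pathway, and Idh1, Idh2 and Idh3a of the TCA cycle set. Aldoc was the gene that fell. The difference was above 0 for 29 of the 35, with a median of 0.28 on the log2 scale, where the median over all genes was 0.00 and 50.7% of them were above 0. The 4 WT and 3 TG arrays did not overlap for 22 of the 35 genes (62.9%), against 29.9% of all genes tested. Hk3 passed the filter through the TG arrays alone and therefore had to differ. Without it the numbers were 9 of 34 higher and 1 lower, a median of 0.28 and 21 of 34 without overlap.

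Whether these genes passed the test depended on single arrays. All 11 genes kept their direction in each of the 23 other settings in which they were tested. For Hk3 these were 22, since it did not pass a stricter filter. The groups did not overlap for any of the 11, so leaving out arrays could not reverse the direction. Several of the other settings left the difference itself unchanged. By the adjusted p of limma, 0 of the 35 passed without WT replicate 2 and 0 without TG replicate 2, with 17 and 19 of them at an unadjusted p under 0.05. Without WT replicate 1 the numbers were 5 higher and 1 lower, without WT replicate 3 or WT replicate 4 they were 5 higher and 0 lower, without TG replicate 1 they were 13 and 1, and without TG replicate 3 they were 10 and 0. With TG replicate 3 and WT replicate 4 both left out, 7 were higher and 0 lower. With the level of Xist as a covariate, 3 were higher and 0 lower, and with WT replicates 1 and 2 as the sole controls none passed, with 18 at an unadjusted p under 0.05 in each of these fits. Of all genes, 0.841% were called higher without TG replicate 2 and 1.13% without WT replicate 2. The shares were 3.49%, 2.39% and 2.48% without WT replicates 1, 3 and 4, and 8.44% and 6.81% without TG replicates 1 and 3. They were 3.6% without TG replicate 3 and WT replicate 4, 1.44% with Xist and 0.116% against WT replicates 1 and 2. The shares called lower in these settings ran from 0.0105% (against WT replicates 1 and 2) to 2.85% (without TG replicate 1).

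**Figure D1:**
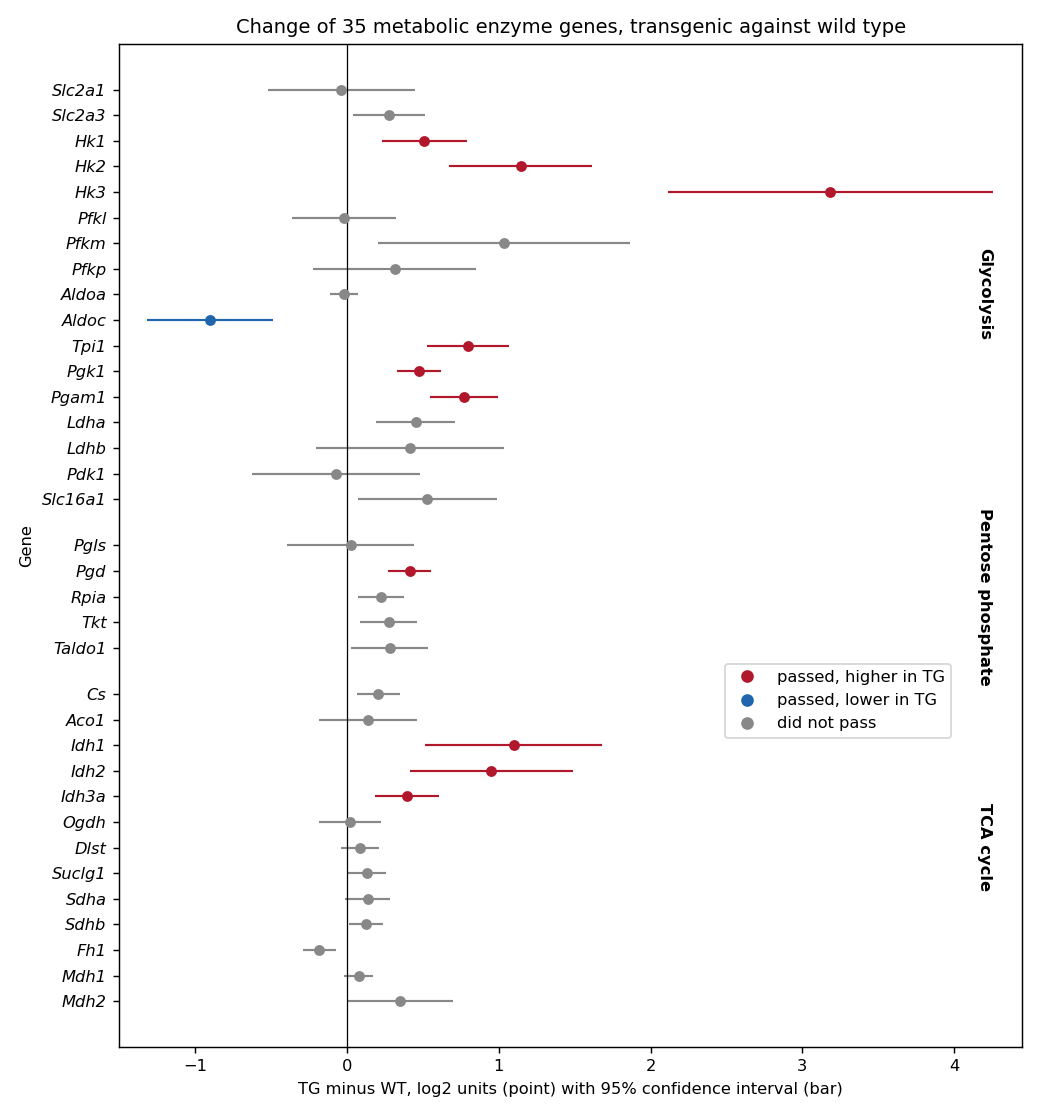
Difference in level between TG and WT (TG minus WT, log2 units, horizontal axis) of the 35 measured genes, grouped by pathway, with 95% confidence intervals of the limma fit as bars (red passed and higher, blue passed and lower, grey did not pass). Most points lie to the right of 0, Hk3 is the farthest right at 3.19 (a fitted value from WT levels under 4, tested through its TG arrays alone), and Aldoc at -0.90 is the gene that fell.

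Glucose enters the cell through facilitative transporters and is lost to lactate export at the other end. Slc2a1, which encodes the ubiquitous glucose transporter GLUT1, read 10.95, 11.33, 11.58 and 11.52 on the WT arrays and 11.56, 11.43 and 10.94 on the TG arrays. The groups overlapped over their whole range, and the difference of -0.04 had a 95% interval of -0.52 to 0.45. Slc2a3, which encodes the high-affinity transporter GLUT3, read 11.34, 11.50, 11.51 and 11.51 in WT and 11.66, 11.60 and 11.97 in TG. All TG arrays lay above all WT arrays, with a difference of 0.28 that did not pass (limma adjusted p = 0.125). Slc16a1, which encodes the lactate transporter MCT1, read 9.16, 8.98, 8.90 and 9.10 in WT and 9.14, 9.55 and 9.99 in TG, and its lowest TG array fell within the WT range (difference 0.53, limma adjusted p = 0.128).

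Hexokinase, which phosphorylates glucose and commits it to the cell, was a step with 3 measured isozymes, of which Hk1 and Hk2 rose and Hk3 was above background in TG alone. Hk1, the widely expressed isozyme, read 10.54, 10.51, 10.40 and 10.46 in WT and 10.78, 10.91 and 11.28 in TG, a rise from 10.48 ± 0.06 (SD, n = 4) to 10.99 ± 0.26 (SD, n = 3). The groups did not overlap, and the fold was 1.42 (log2 difference 0.51, SE 0.12, limma adjusted p = 0.046). A dimmer probe set of Hk1 differed by 0.66 and did not pass (limma adjusted p = 0.0927), and where probe sets that name Hk1 with other genes were allowed to stand for it, the difference was 0.01 (limma adjusted p = 0.918). Hk2, the inducible isozyme of growing cells, read 6.06, 6.15, 6.40 and 6.53 in WT and 7.09, 7.37 and 7.82 in TG. Its mean rose from 6.29 ± 0.22 to 7.43 ± 0.37, a 2.21-fold rise (log2 difference 1.14, SE 0.20, limma adjusted p = 0.0248). Every TG array was above every WT array for this gene as well. Hk3, an isozyme found mainly in white blood cells of the myeloid line, read 3.06, 2.71, 2.52 and 3.42 in WT, all under the background level of 4, and 5.26, 5.95 and 7.13 in TG. Since the WT level has only an upper bound, the TG mean of 6.11 ± 0.95 set against 4 gives a level at least 4.33-fold higher in TG (limma adjusted p = 0.0164, for a gene that entered the test only because its TG arrays were above 4). A dimmer probe set of Hk3 differed by 2.54 and did not pass (limma adjusted p = 0.0523). On the same arrays the granulocyte markers moved the same way, from 2.75 to 3.41 in WT to 6.68 to 7.52 in TG. So did the macrophage markers, from 3.70 to 4.92 in WT to 4.93 to 6.83 in TG, and the other non-B cell lists given above. The part of any of these cells in the Hk3 result was not tested.

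Phosphofructokinase, the main control point of glycolysis, did not pass for any of its subunit genes. Pfkl, the liver-type subunit, differed by -0.02 (limma adjusted p = 0.95) at a level above 9 on every array. Pfkp, the platelet-type subunit, read 9.67, 9.59, 9.39 and 9.51 in WT and 9.63, 9.50 and 10.43 in TG. TG replicate 3 alone was high, and the difference was 0.31 (limma adjusted p = 0.372). Pfkm, the muscle-type subunit, was close to background in WT at 4.52, 4.54, 4.47 and 3.98, and read 4.68, 5.37 and 6.19 in TG. Its groups did not overlap, but the TG arrays were spread widely and the difference of 1.03, with a 95% interval of 0.20 to 1.87, did not pass (limma adjusted p = 0.11).

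Aldolase splits fructose 1,6-bisphosphate into the triose phosphates, and 1 of its 2 measured genes, Aldoc, passed the test. Aldoa, the abundant isozyme, lay between 12.67 and 12.78 on all 7 arrays, with a difference of -0.02 and a narrow 95% interval of -0.11 to 0.07. Aldoc, the brain-type isozyme, was much dimmer and read 6.43, 6.76, 7.02 and 6.99 in WT and 6.06, 5.99 and 5.66 in TG. Its mean was 6.80 ± 0.27 (SD, n = 4) in WT and fell to 5.90 ± 0.22 (SD, n = 3), a TG level of 0.536 times that in WT (log2 difference -0.90, SE 0.17, limma adjusted p = 0.0313). The groups did not overlap, and TG replicate 3 was the lowest array.

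The steps from triose phosphate to 2-phosphoglycerate held 3 of the 4 smallest adjusted p-values of the whole set, the other being that of Hk3. Tpi1, which interconverts the triose phosphates, read 9.89, 9.80, 10.04 and 10.08 in WT and 10.56, 10.74 and 10.96 in TG. It rose 1.74-fold, from 9.95 ± 0.13 to 10.75 ± 0.20 (log2 difference 0.80, SE 0.11, limma adjusted p = 0.0171), and its 3 probe sets gave differences of 0.80 to 0.85, all past the threshold. Pgk1, phosphoglycerate kinase, which makes the first ATP of the pathway, read 11.66, 11.65, 11.70 and 11.79 in WT and 12.07, 12.21 and 12.25 in TG. Both groups were tight, at 11.70 ± 0.07 and 12.17 ± 0.09, and the rise was 1.39-fold (log2 difference 0.47, SE 0.06, limma adjusted p = 0.0132). Pgam1, phosphoglycerate mutase, read 11.76, 11.73, 11.70 and 11.61 in WT and 12.30, 12.43 and 12.68 in TG, a 1.71-fold rise (log2 difference 0.77, limma adjusted p = 0.0124). For each of these 3 genes the lowest TG array was clearly above the highest WT array. They were also the genes that most often stayed past the threshold: Pgk1 in 18 of 23 other settings, Tpi1 in 17 and Pgam1 in 16.

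**Figure D2:**
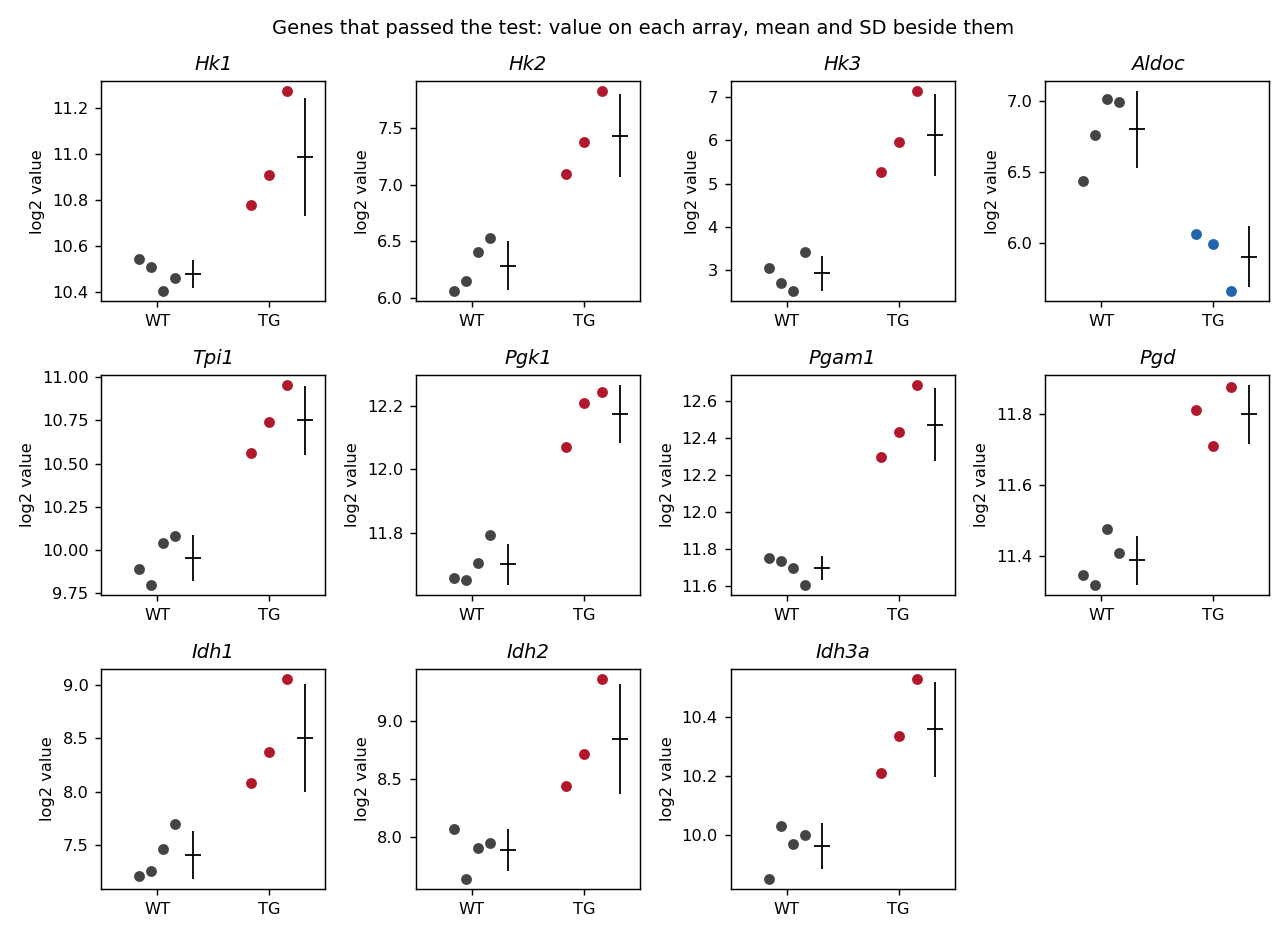
Log2 intensity (vertical axes) on each of the 4 WT and 3 TG arrays for the 11 genes that passed the test, with 1 panel per gene, points for arrays and, beside them, each group's mean (tick) and SD (bar). In all 11 panels the groups do not overlap, and TG replicate 3 is the highest TG array in each of the 10 genes that rose.

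At the end of the pathway, Ldha, the muscle-type lactate dehydrogenase subunit that favours lactate formation, read 11.74, 11.84, 11.88 and 11.80 in WT and 12.07, 12.20 and 12.53 in TG. The groups did not overlap, and the difference of 0.45 (95% interval 0.19 to 0.71) lay just outside the threshold (limma adjusted p = 0.0507), next to Idh2 just inside it (0.0481). Ldhb, the heart-type subunit, was at 5.29 on all WT arrays and on TG replicate 1, which is the lowest value its probe set took, and at 5.43 and 6.41 on the other TG arrays. A dimmer probe set of Ldhb read 2.67, 2.32, 2.28 and 3.15 in WT and 4.40, 4.95 and 6.93 in TG and had a limma adjusted p of 0.0377, but it entered the test only because its TG arrays were above 4. Pdk1, which encodes a kinase that shuts off pyruvate entry into the TCA cycle, differed by -0.07 with overlapping groups (limma adjusted p = 0.853).

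The 250 bases before the start of 4 glycolytic genes are shown because sequence motifs shared by growth- and hypoxia-responsive promoters occur in them. MYC and its partners are known to bind the E-box CACGTG, and hypoxia-inducible factors the core ACGTG (or GCGTG, searched separately). Sequences are from RefSeq, build GRCm38.p6, written along the strand of the gene, with ACGTG or its complement in capitals: Hk2 (chr6:82774455-82774704, minus strand), Pgam1 (chr19:41911621-41911870, plus), Pgk1 (chrX:106186850-106187099, plus) and, for 1 of its RefSeq starts, Ldha (chr7:46845554-46845803, plus).
Hk2: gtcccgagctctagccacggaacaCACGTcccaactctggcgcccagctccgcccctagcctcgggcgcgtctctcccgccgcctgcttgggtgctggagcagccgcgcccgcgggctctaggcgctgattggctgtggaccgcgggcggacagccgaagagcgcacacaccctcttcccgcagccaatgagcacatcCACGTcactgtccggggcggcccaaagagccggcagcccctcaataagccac
Pgam1: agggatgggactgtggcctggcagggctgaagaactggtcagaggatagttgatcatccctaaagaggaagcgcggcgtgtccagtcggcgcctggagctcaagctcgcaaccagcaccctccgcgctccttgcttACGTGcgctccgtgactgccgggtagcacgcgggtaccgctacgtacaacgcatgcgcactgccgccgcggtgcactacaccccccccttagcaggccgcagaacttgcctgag
Pgk1: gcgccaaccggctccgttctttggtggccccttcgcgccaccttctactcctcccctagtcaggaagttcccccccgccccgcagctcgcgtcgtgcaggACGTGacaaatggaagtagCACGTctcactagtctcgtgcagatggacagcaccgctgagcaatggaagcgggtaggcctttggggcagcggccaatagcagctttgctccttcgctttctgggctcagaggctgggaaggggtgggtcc
Ldha: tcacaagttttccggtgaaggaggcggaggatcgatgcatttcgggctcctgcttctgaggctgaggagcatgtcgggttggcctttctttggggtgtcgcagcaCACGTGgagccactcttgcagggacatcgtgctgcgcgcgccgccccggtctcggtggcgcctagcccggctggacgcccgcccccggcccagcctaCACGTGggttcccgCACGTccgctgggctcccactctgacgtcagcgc
Hk2 holds 2 runs in capitals, Pgam1 holds 1, Pgk1 holds 2 and Ldha holds 3, of which 2 are full CACGTG boxes. RefSeq promoter windows (250 bases before to 50 after a start) were at hand for 36 of the 38 genes. On either strand, ACGTG occurred in those of 15 of the 36 genes, against 21.8% of all genes, and CACGTG, which contains ACGTG, in those of 4 (Pfkm, Ldha, Slc16a1 and Ogdh), against 8.09%. GCGTG occurred in 26 of the 36, against 35.2% of all genes. The windows of these genes were also richer in G and C, with a median of 60.3% against 52.7% over all windows. The part of base composition in the motif shares was not tested. By pathway, ACGTG was present for 11 of 18 glycolytic genes, 1 of 6 pentose phosphate genes and 3 of 12 TCA cycle genes. Among the glycolytic genes that rose it was present for Hk1, Hk2, Hk3, Pgk1 and Pgam1 and not for Tpi1. It was also present for Aldoc, which fell, and for Slc2a1, Pfkm, Aldoa, Ldha and Slc16a1, which did not pass. Of genes that rose and had a window, it was present for 0 of 1 in the pentose phosphate pathway and 0 of 2 in the TCA cycle set. CACGTG was present for 0 of the genes that rose. A match describes letters in a window and does not show that a factor binds there.

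All 5 measured pentose phosphate genes had a difference above 0, from 0.02 to 0.41, and 1 passed. Pgd, 6-phosphogluconate dehydrogenase, which makes NADPH and ribulose 5-phosphate, was the gene that passed, with 11.35, 11.32, 11.48 and 11.41 in WT and 11.81, 11.71 and 11.88 in TG. It rose 1.33-fold, from 11.39 ± 0.07 (SD, n = 4) to 11.80 ± 0.08 (SD, n = 3) (log2 difference 0.41, SE 0.06, limma adjusted p = 0.018). Its 4 probe sets all passed, with differences of 0.31 to 0.45, and the groups did not overlap. Pgls, the lactonase of the step before, read 10.67, 10.58, 10.72 and 10.78 in WT and 10.89, 10.99 and 10.25 in TG. TG replicate 3 was its lowest array and the other TG arrays its highest, and the difference was 0.02 (limma adjusted p = 0.943). Tkt, transketolase, which links the pathway back to glycolysis, read 13.07, 13.11, 12.92 and 13.01 in WT and 13.24, 13.20 and 13.47 in TG. Its groups did not overlap and its brightest probe set did not pass (difference 0.28, limma adjusted p = 0.0755), while a dimmer one did (0.37, limma adjusted p = 0.0325). Rpia, which isomerises ribulose 5-phosphate to ribose 5-phosphate, differed by 0.22 without overlap (limma adjusted p = 0.0739). Taldo1, transaldolase, differed by 0.28, with its lowest TG array level with the highest WT array at 12.17 (limma adjusted p = 0.136).

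In the TCA cycle set, the genes that passed all encode isocitrate dehydrogenases, which turn isocitrate into 2-oxoglutarate. Idh1, the cytosolic NADP+-dependent form and therefore not an enzyme of the cycle itself, read 7.21, 7.25, 7.46 and 7.69 in WT and 8.08, 8.38 and 9.06 in TG. It rose 2.14-fold, from 7.40 ± 0.22 to 8.50 ± 0.50 (log2 difference 1.10, SE 0.24, limma adjusted p = 0.0422). A dimmer probe set of Idh1 differed by 1.09 and did not pass (limma adjusted p = 0.0901). Idh2, the mitochondrial NADP+-dependent form, read 8.07, 7.64, 7.90 and 7.95 in WT and 8.44, 8.72 and 9.37 in TG. Its brightest probe set rose by 0.95 (SE 0.22, limma adjusted p = 0.0481), while its other probe set differed by 0.07 and did not pass (limma adjusted p = 0.632), so the Idh2 result rests on 1 probe set. Idh3a, the catalytic subunit of the NAD+-dependent enzyme of the cycle, read 9.85, 10.03, 9.97 and 10.00 in WT and 10.21, 10.34 and 10.53 in TG. It rose 1.32-fold, from 9.96 ± 0.08 to 10.36 ± 0.16 (log2 difference 0.40, SE 0.09, limma adjusted p = 0.0417). Its other tested probe sets, both much dimmer, differed by 0.33 and 0.13 and did not pass (limma adjusted p = 0.282 and 0.325). For all 3 genes every TG array was above every WT array. Its partner subunits Idh3b and Idh3g, looked at after the Idh3a value was seen, differed by -0.11 and -0.04 and did not pass (limma adjusted p = 0.315 and 0.606).

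The other 10 TCA cycle genes did not pass. Cs, citrate synthase, which admits acetyl groups to the cycle, read 11.91, 11.95, 11.95 and 12.13 in WT and 12.19, 12.17 and 12.22 in TG, a difference of 0.21 without overlap (limma adjusted p = 0.0764). Suclg1, a subunit of succinyl-CoA ligase, and Sdhb, the iron-sulphur subunit of succinate dehydrogenase, each differed by 0.13, and Sdha, its flavoprotein subunit, by 0.14. Ogdh and Dlst, subunits of the 2-oxoglutarate dehydrogenase complex, differed by 0.02 and 0.09, and the cytosolic aconitase gene Aco1 by 0.14. Fh1, fumarase, was the TCA cycle gene with a negative difference. It read 11.36, 11.32, 11.34 and 11.46 in WT and 11.18, 11.20 and 11.19 in TG, a difference of -0.18 without overlap that did not pass (95% interval -0.29 to -0.07, limma adjusted p = 0.057). Mdh2, the mitochondrial malate dehydrogenase, read 13.06, 13.09, 13.01 and 13.17 in WT and 13.21, 13.27 and 13.81 in TG, with TG replicate 3 far above the other TG arrays (difference 0.35, limma adjusted p = 0.164). Mdh1, the cytosolic form, differed by 0.08 (limma adjusted p = 0.231).

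Side by side, the shares of genes that passed are to be read against the 8.11% of all genes called higher and the 2.56% called lower. Glycolysis had 6 of 17 measured genes higher and 1 lower, with a median difference of 0.45 and 12 of 17 above 0 (5 of 16 higher and a median of 0.44 without Hk3). The pentose phosphate pathway had 1 of 5 higher and 0 lower, with a median of 0.28 and 5 of 5 above 0, and the TCA cycle had 3 of 13 higher and 0 lower, with a median of 0.14 and 12 of 13 above 0. At an unadjusted p under 0.05, 2 of all 35 genes were lower, Aldoc and Fh1. The mean over the glycolytic genes was 8.95 to 9.04 on the WT arrays and 9.29, 9.45 and 9.80 on TG replicates 1, 2 and 3. For the pentose phosphate genes it was 11.50 to 11.61 in WT and 11.78, 11.80 and 11.79 in TG, and for the TCA cycle genes 10.67 to 10.78 in WT and 10.89, 10.97 and 11.09 in TG. In each pathway the TG means lay above the WT means. The pentose phosphate means of the TG arrays were close together although Pgls was at its lowest on TG replicate 3, where Pgd, Rpia, Tkt and Taldo1 were at their highest. The groups did not overlap for 10 of 17, 3 of 5 and 9 of 13 genes, where 29.9% of all genes did not overlap. The pathways were compared by these counts and medians, and no test of the difference between pathways was run.

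**Figure D3:**
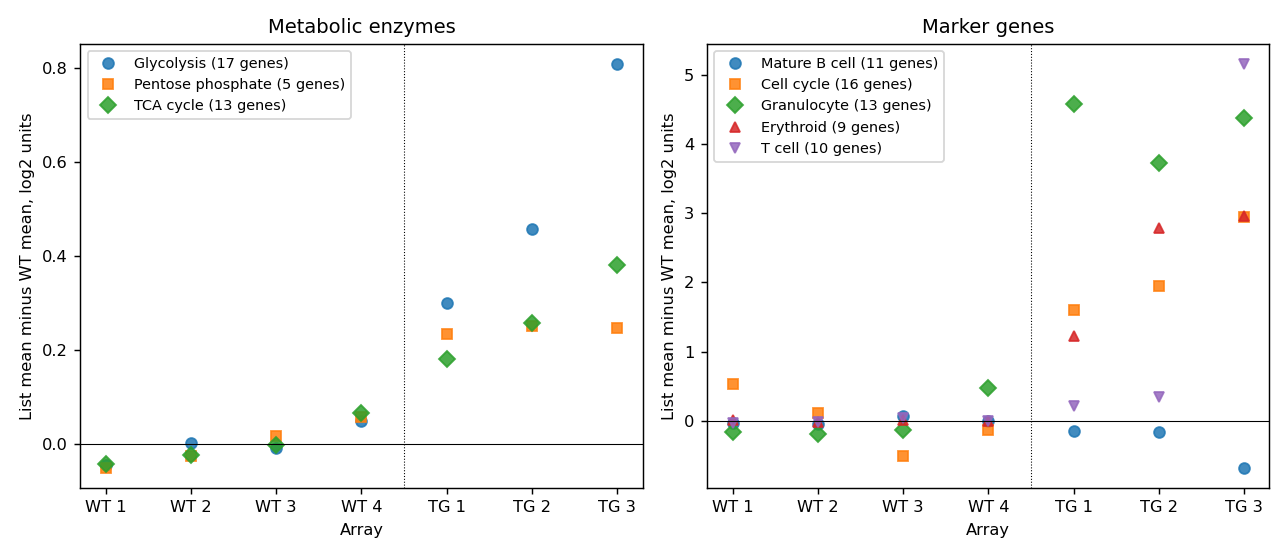
Mean log2 intensity of a gene list on each of the 7 arrays minus its mean over the WT arrays (log2 units, vertical axes), for the 3 pathways (left) and for 5 marker lists (right, on a wider scale, every gene with a probe set), 1 point per list and array, with a dotted line between WT and TG. On the left all TG points lie above all WT points of their pathway, with glycolysis on TG replicate 3 the highest (mean level 9.80), and on the right the granulocyte, erythroid and cell cycle lists lie above WT on all TG arrays, the T cell list stands high on TG replicate 3 and the mature B cell list lies slightly below WT.

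TG replicate 3 was the highest of the TG arrays for 25 of the 35 genes and for 10 of the 10 that rose, against 35.04% of all genes tested. TG replicate 1 was the lowest for 20 of the 35 and for 9 of those 10, against 29.7% of all genes. The same replicate 3 had the highest means of the erythroid, T cell, natural killer, blood progenitor and cell cycle markers given above. This also held for the macrophage, dendritic cell, platelet and plasma cell markers, and its mature B cell mean was the lowest, 12.75. The granulocyte mean depended on the genes counted. Over all 13 genes it was highest on TG replicate 1 (7.52). Over the 7 that passed the filter, 3 of them through 1 group alone, it was 9.89, 9.92 and 10.65 on TG replicates 1, 2 and 3. The part of other cells and of cell division in the enzyme levels was not tested. Split by Xist, the 10 genes that rose differed by 0.42 to 3.23 from WT replicates 1 and 2 and by 0.36 to 3.14 from WT replicates 3 and 4.

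Isozymes of the same step were compared in 11 pairs, by the difference between groups of the difference between the genes on each array. The exact two-sided permutation test over the 35 ways to split the arrays cannot give a p under 0.0286, and 0 of the 11 pairs passed after Benjamini-Hochberg adjustment, with 4 at an unadjusted p under 0.05. With 11 pairs adjusted together, a lone pair at that smallest p could not pass. The lack of passing pairs therefore does not show that isozymes changed alike. Hk2 rose by 0.63 more than Hk1, and Aldoc changed by -0.88 relative to Aldoa, each at the smallest p the exact permutation test allows, 0.0286 (adjusted 0.0786). Hk3 minus Hk2 and Hk3 minus Hk1 had the same exact permutation p, with differences of 2.04 and 2.68. These differences were 0.97 and 1.60 when levels under 4 are set at 4. Hk3 was tested only because its TG arrays were above 4, so its pairs leaned toward a difference from the start. They are counted among the 4 pairs at an unadjusted p under 0.05. Pfkm exceeded Pfkl by 1.05 in its change and Pfkp by 0.72, so that Pfkp minus Pfkm was -0.72 (exact permutation p = 0.0571, adjusted 0.105). For Mdh2 minus Mdh1 the value was 0.27 (exact permutation p = 0.0857, adjusted 0.135). The pairs Slc2a3 minus Slc2a1 (0.31) and Pfkp minus Pfkl (0.33) had an exact permutation p of 0.371, Idh2 minus Idh1 (-0.15) of 0.514 and Ldhb minus Ldha (-0.04) of 0.943. Ldhb was at the lowest value of its probe set on 5 arrays, so its pair cannot show whether the subunits changed alike. Its dimmer probe sets differed by 1.23, 1.63 and 2.82.

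**Figure D4:**
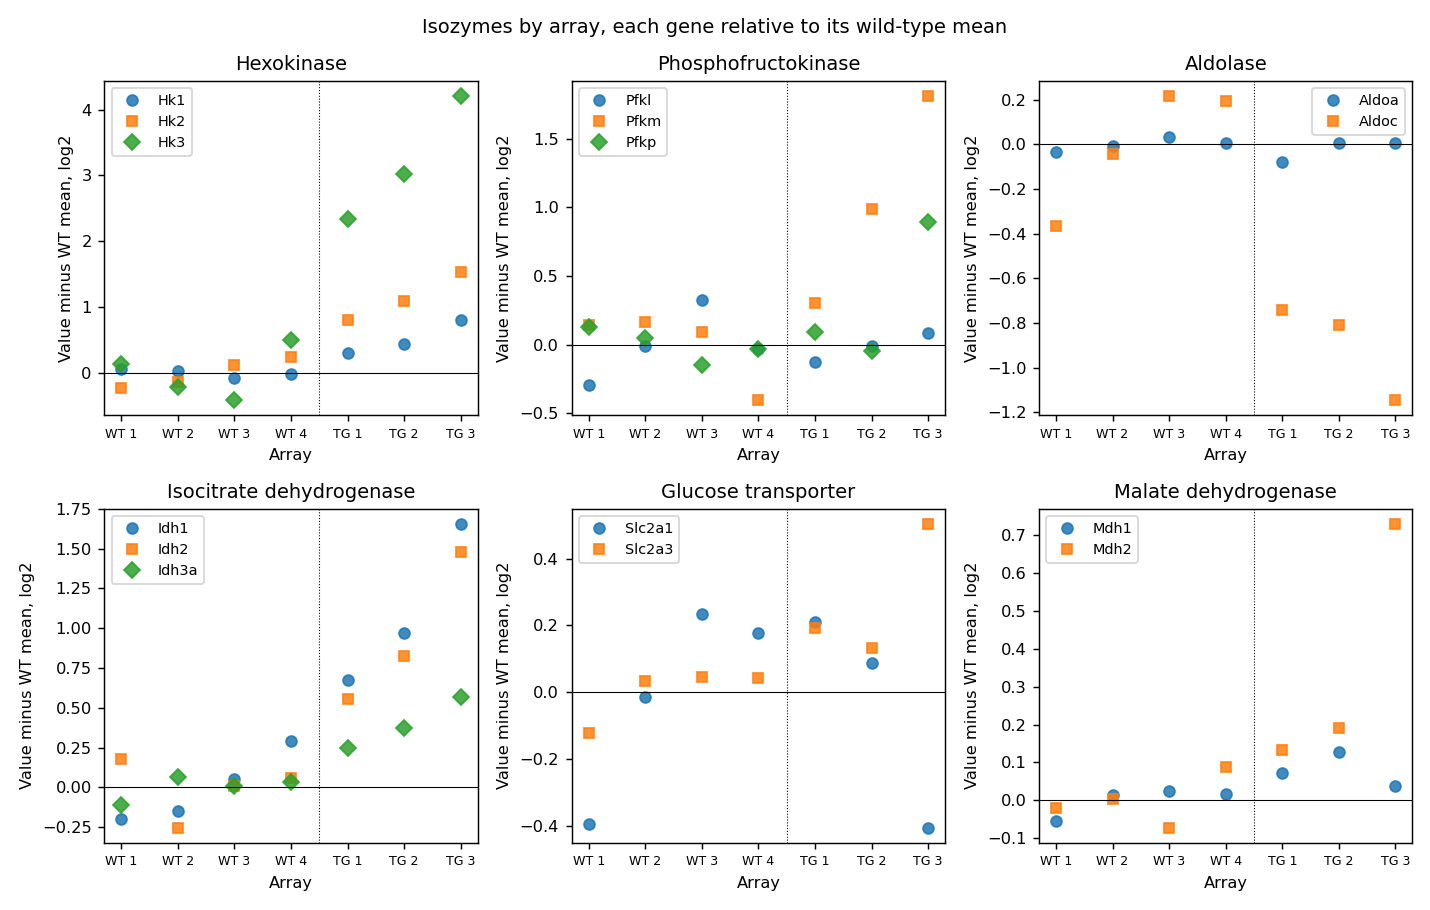
Log2 intensity of isozymes or subunits of 6 steps, each gene minus its own WT mean (log2 units, vertical axes, scaled by panel), on each of the 4 WT and 3 TG arrays, 1 point per gene and array. Hk3, whose WT values are all below background, moves farther than Hk2 and Hk1 on every TG array, Aldoa stays near its WT mean while Aldoc is lower in TG, and TG replicate 3 stands apart for Pfkp, Slc2a3 and Mdh2.

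Where a gene had more than 1 tested probe set, these mostly pointed the same way. A second tested probe set existed for 23 genes, and 18 of these agreed in sign across all of theirs. The exceptions were Aldoa, whose probe sets all lay within 0.04 of 0, Mdh1, and Sdha, Ogdh and Dlst. In Sdha, Ogdh and Dlst a dimmer probe set gave a negative difference (-0.52, -0.53 and, at the lowest, -0.37) beside a small positive one of the brightest, and none of these passed. Pgd, Tpi1 and Pgk1 had every probe set past the threshold.

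Enzymes of the same pathways outside the set were read as a further description, from a list of 63 genes, of which 56 had a probe set of their own and 39 were tested. Of these, 7 were higher (17.9%) and 1 lower (2.56%), with a median difference of 0.00, where 8.11% of all genes were called higher and 2.56% lower. Other glycolytic genes had 4 of 12 higher (median 0.29), other pentose phosphate genes 2 of 6 higher (median 0.29), and other genes of the TCA cycle and of pyruvate entry 1 of 21 higher (4.76%, under the share over all genes) and 1 lower (median 0.00). Pkm, pyruvate kinase, the last step of glycolysis, read 11.30, 11.39, 11.49 and 11.36 in WT and 11.69, 11.86 and 12.09 in TG, a rise of 0.50 without overlap (limma adjusted p = 0.0339). Minpp1, an inositol polyphosphate phosphatase that also acts on 2,3-bisphosphoglycerate, rose by 0.81 (limma adjusted p = 0.0234), Rpe, ribulose 5-phosphate epimerase, by 0.33 (limma adjusted p = 0.0298) and Prps1, which makes phosphoribosyl pyrophosphate from ribose 5-phosphate, by 0.32 (limma adjusted p = 0.0287). Pdk3, a pyruvate dehydrogenase kinase, rose by 0.55 (limma adjusted p = 0.0235). Its relative Pdk2, named after its values were seen, fell by 0.76 (limma adjusted p = 0.0313). Gapdh has no probe set of its own in the annotation used here.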

How the data were processed

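RNA of splenic B cells from 4 WT and 3 TG mice was labelled with biotin and hybridised to 1 array per sample, per the labels' protocols. The authors deposited log2 values. The submitters' processing notes name GCRMA as the tool and state no version. GCRMA corrects background and leaves 35.5% to 37.0% of each array's values at a common lowest value of 2.17, so changes of dim genes are compressed. Scanner files and scan dates were not used here. Depth is not defined for arrays, and their number limits the precision. Of 45101 probe sets, 64 controls were left out and 20994 above 4 on at least 3 arrays were tested with limma 3.58.1 (lmFit, eBayes with trend, R 4.3.3), TG against WT, without covariates. P-values were adjusted by Benjamini-Hochberg over all tested probe sets. Of 34945 probe sets with 1 gene, 34741 matched a RefSeq symbol table, and 0 symbols changed. The genes, lists and tests were chosen with earlier results of these data known. Genes that passed are given with every array. Of other enzymes and regulators, the 6 with the smallest p among those that passed are named, besides Gapdh, Pkm, Myc and Hif1a. The fit was tested on simulated data. Alternatives changed the filter, scaling, floor, variance model, weights, probe set choice, threshold, sex term and arrays.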

Additional observations from a re-analysis of the deposited data

Results flagged for a closer look

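Among the 35 genes, 3 had 1 WT array that stood apart from the other 3, judged by its gap to the nearest array against the range of the group. Chance does this in about 1 in 20 groups. Slc2a3 read 11.34 on WT replicate 1, with the nearest array at 11.50. Pfkm read 3.98 on WT replicate 4, below the background level of 4, with the nearest at 4.47. Mdh1 read 12.57 on WT replicate 1, with the nearest at 12.64. None of these genes passed the limma test, and in each the outlying array was the lowest of its group.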

How the results depend on the processing

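The main numbers were 10 genes higher and 1 lower (7 of glycolysis, 1 of the pentose phosphate pathway, 3 of the TCA cycle) and 8 other enzymes called. All 11 called genes kept their direction in each setting in which they were tested (22 for Hk3, which the stricter filter left out, and 23 for the others). Since their groups did not overlap, leaving out arrays could not have reversed it. The Hk1 difference was 0.01 instead of 0.51 where probe sets naming several genes were included, and Idh3a lost its call with the mean of its probe sets (0.29, limma adjusted p = 0.115). Without a filter, 1 gene was higher and 0 lower (1, 0 and 0 by pathway, 0 other enzymes). That setting called 0.55% of all genes higher and 0.0879% lower, where the main fit called 8.11% and 2.56%. Array weights, whose estimation stopped short of convergence, gave 20 higher and 2 lower, with 4 pentose phosphate, 8 TCA cycle and 15 other genes. The shares of all genes rose as well with these weights, to 19.3% higher and 9.75% lower. The mean of a gene's probe sets gave 2 lower, 2 pentose phosphate genes and 7 of 11 isozyme pairs, with 9.37% of all genes higher and 3.86% lower. An adjusted p under 0.01 left 0 in every count, and one under 0.10 gave 2 lower, 3 pentose phosphate, 5 TCA cycle and 14 other genes. Of all genes, 0.872% were higher and 0.0946% lower at 0.01, and 14% and 5.61% at 0.10. With Xist as a covariate 3 were higher and 0 lower (2 of glycolysis, 0 of the TCA cycle, 0 other enzymes). With WT replicates 1 and 2 alone as controls every count was 0. Without TG replicate 3 and WT replicate 4, 0 were lower, 0 pentose phosphate genes passed and 0 other enzymes. The replicate number as a block, which drops WT replicate 4, gave 0 in every count, with 0.0315% of all genes higher and 0% lower. Same-numbered arrays did not deviate together (r = -0.04, -0.14 and -0.29). These correlations gave no sign that the numbers pair the arrays, but they cannot exclude a shared litter or processing day. Where no gene passed, 16 to 23 of the 35 had an unadjusted p under 0.05 in limma. Leaving out 1 array at a time gave 0 to 13 higher, 0 to 1 lower, 0 to 10 of glycolysis, 0 to 1 pentose phosphate, 0 to 3 TCA cycle and 0 to 5 other genes. The share of all genes called higher then ranged from 0.841% to 8.44%. Shares for the Xist term and the reduced sets of arrays are given with the Results. The cause of these shifts was not tested.

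Sign changes touched genes and pairs that did not pass. Slc2a1 became 0.0796 with array weights, 0.18 with Xist, 0.17 against WT replicates 1 and 2, 0.21 without both arrays and 0.0225 with the block, and Pfkl became 0.14 and 0.13 in the second and the third of these. Aldoa became 0.000811 and 0.000273 there, Ogdh -0.000774 with the block, and Slc2a3 minus Slc2a1 -0.0302 without both arrays. The mean of probe sets gave Sdha -0.12, Dlst -0.23 and Ogdh -0.25, and Ldhb minus Ldha 1.04 (exact permutation adjusted p = 0.0449). With 1 array left out, the differences that changed sign ranged from -0.0354 to 0.0086 for Aldoa, from -0.25 to 0.0736 for Ldhb minus Ldha, from -0.0557 to 0.0974 for Ogdh, from -0.27 to 0.0523 for Pdk1, from -0.11 to 0.0922 for Pfkl, from -0.11 to 0.25 for Pgls and from -0.17 to 0.15 for Slc2a1.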

Other observations

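Regulators of glucose metabolism were read as a list of 23 genes, of which 21 had a probe set of their own and 18 were tested. Of these, 1 was higher and 1 was lower (5.56% each), where 8.11% of all genes were called higher and 2.56% lower. The median difference was -0.07, against 0.00 over all genes. Myc, which encodes a transcription factor known to drive growth genes that include glycolytic enzymes, read 9.99, 9.73, 9.39 and 9.53 in WT and 10.52, 10.50 and 10.67 in TG. It rose by 0.90 without overlap (SE 0.15, limma adjusted p = 0.0221). Foxo1, which encodes a forkhead factor restrained by growth factor signalling, read 11.46, 11.49, 11.42 and 11.65 in WT and 11.13, 10.99 and 10.73 in TG, and fell by 0.55 (limma adjusted p = 0.0298). Hif1a, the oxygen-regulated subunit of hypoxia-inducible factor, differed by -0.32 without overlap and did not pass (limma adjusted p = 0.0603). The link of these genes to the enzyme levels was not tested.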
